A study of Homo sapiens with 6 samples.

Results

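The matrix metalloproteinases (MMPs) and tissue inhibitors of metalloproteinases (TIMPs) followed here are 10 genes, 8 MMPs and 2 TIMPs, out of 20046 genes named on the array. They were fixed by name as MMP1, MMP2, MMP3, MMP7, MMP9, MMP10, MMP13, MMP14, TIMP1 and TIMP2, and every probe annotated to 1 of them was taken. This gave 12 of the 47230 probes, with 2 probes each for MMP7 and TIMP2 and 1 for each of the other 8 genes. Each gene was represented by its probe with the highest mean over the 6 arrays. The samples were 3 arrays of HN5, an established human line of head and neck squamous carcinoma that is sensitive to erlotinib, and 3 arrays of an erlotinib-resistant line derived from it. Erlotinib blocks the kinase activity of EGFR, the receptor for epidermal growth factor. The resistant line was obtained by raising the drug stepwise over 3 months to 12.5 µM and keeping the cells at that concentration for 6 months. The labels give no treatment of the parental arrays and do not say whether the drug was present when RNA was taken. All resistant arrays are of 1 derived line, so its time in culture and changes peculiar to it cannot be told apart from resistance.

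MMPs are zinc-dependent endopeptidases that are made as inactive pro-forms and, once activated, cut collagens, laminins and other matrix proteins as well as receptors, adhesion molecules and growth factor precursors at the cell surface. TIMPs are small secreted proteins that block the active site of MMPs. In squamous carcinomas several MMP genes are known as targets of AP-1 and ETS transcription factors, which act downstream of EGFR and the MAP kinases.

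Values are the authors' normalized log2 signals, on which a difference of 1 is a doubling. A probe was counted as above background when it exceeded a limit of about 6.97, the mode of the values on its array plus 3 SD of the values below the mode. Between 40.7% and 41.0% of probes passed this limit on each array. Across probes, which are not independent replicates, Pearson's r was 0.996 to 0.997 for arrays within a group and 0.978 to 0.980 for arrays taken from both groups. Of the squamous epithelial markers KRT5, KRT14, DSG3, CDH1, EPCAM and SFN, 6 of 6 were above background on all arrays of both groups. All 6 fell in the resistant cells by the test given below, as did 26.9% of all genes tested. KRT6A and TP63 were not analysed here.

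Of the 10 genes, 7 had a probe above background on at least 3 of the 6 arrays and were tested, and 6 were above background on all 6 arrays. MMP7, TIMP1 and TIMP2 rose in the resistant cells, MMP10 and MMP1 fell, and MMP13 and MMP14 did not pass the test (limma, Benjamini-Hochberg adjustment over all 11398 genes tested). Over all genes tested, 52.9% were called, 26.0% as risen and 26.9% as fallen, so a call by itself was common in this comparison. In the fit over probes, 9 of the 12 member probes were tested, 5 rose and 2 fell. The dimmer TIMP2 probe, among those that rose, passed the filter through the resistant arrays alone. Of all probes tested, 45.0% were called, 21.6% as risen and 23.4% as fallen. The sizes were less common. All 5 called members changed at least 2-fold, whereas 1.99% of all genes rose and 1.18% fell by that much. All 5 also passed 3-fold, as did 0.816% of all genes in either direction. The median log2 change of the 7 tested members was -0.15, against -0.01 over all genes tested. The members were named with earlier results of these data known, so these counts describe them and are no independent evidence.

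**Figure D1:**
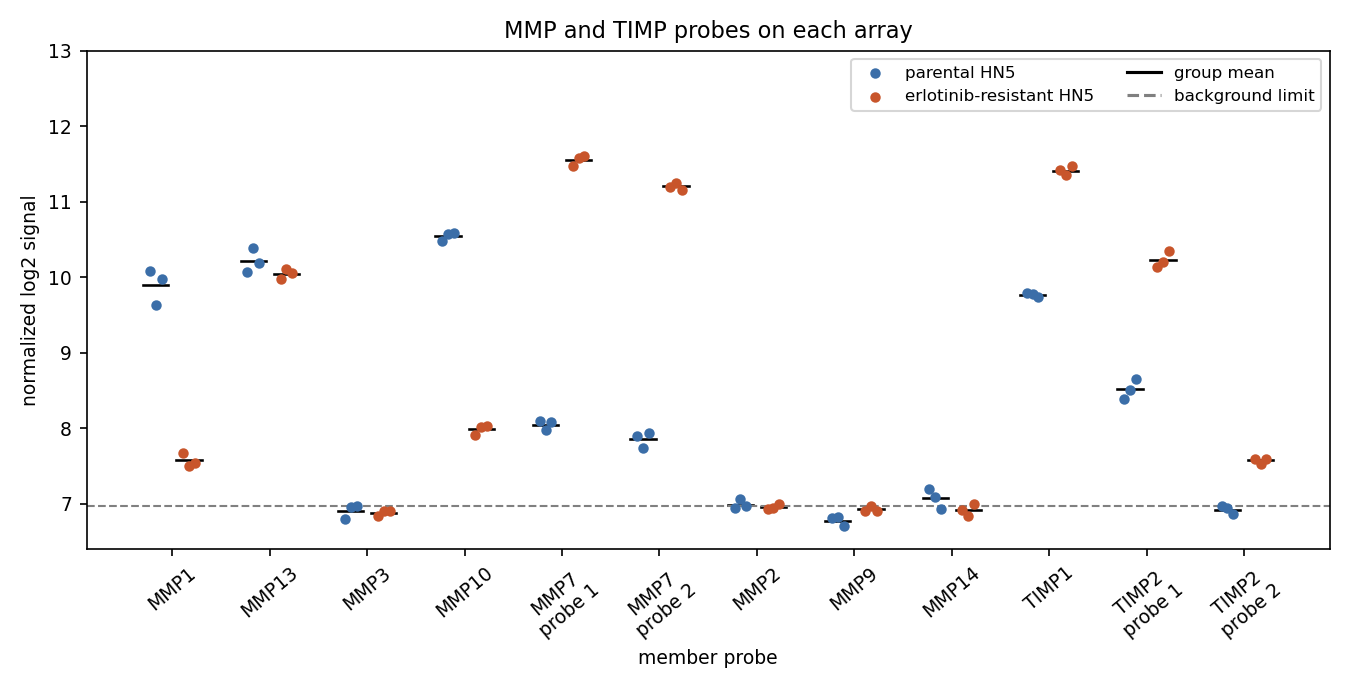
Normalized log2 signal (vertical axis) of the 12 member probes (horizontal axis) on 3 parental arrays (blue) and 3 resistant arrays (orange); each point is 1 array, black bars are group means and the dashed line is the background limit. The groups lie far apart for MMP1, MMP10, both MMP7 probes, TIMP1 and the brighter TIMP2 probe, whereas MMP2, MMP3, MMP9 and MMP14 sit at or near the limit of about 6.97.

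MMP7 encodes matrilysin, a compact MMP without the hemopexin domain of most relatives, which epithelial cells make and which is known to cut E-cadherin, syndecan-1 and the precursor of HB-EGF. Its brighter probe read 8.09, 7.97 and 8.08 on the parental arrays and 11.47, 11.58 and 11.60 on the resistant arrays. The lowest resistant array lay far above the highest parental array. The group means were 8.05 ± 0.0668 and 11.55 ± 0.0704 (SD, n = 3 each), an 11.3-fold rise (log2 difference 3.50, SE 0.0605, limma adjusted p = 4.36e-13). The dimmer probe went from 7.89, 7.73 and 7.93 to 11.19, 11.25 and 11.16, a difference of 3.35. MMP7 was above background on all 6 arrays, so the fold was measured on both sides. With the background mode subtracted from the linear signals the fold became 18.8.

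MMP10 encodes stromelysin 2, a broad-specificity protease made by keratinocytes at wound edges and able to activate other pro-MMPs. It read 10.48, 10.57 and 10.59 on the parental arrays and 7.91, 8.01 and 8.02 on the resistant arrays. The 2 groups did not overlap, and within each group the arrays lay close together. The means were 10.55 ± 0.0560 and 7.98 ± 0.0619 (SD, n = 3 each), a level 5.91-fold lower in resistant cells (log2 difference -2.56, SE 0.0584, limma adjusted p = 1.79e-12). Among the 11398 genes it had the fall of rank 5 by size as measured.

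MMP1 encodes interstitial collagenase, which cuts fibrillar collagens. It read 10.08, 9.64 and 9.98 on the parental arrays and 7.68, 7.50 and 7.54 on the resistant arrays. Parental replicate 2 was the lowest of its group and still lay far above every resistant array. The means were 9.90 ± 0.233 and 7.57 ± 0.0923 (SD, n = 3 each), a level 5.02-fold lower in resistant cells (log2 difference -2.33, SE 0.0958, limma adjusted p = 3.88e-10). This fall had rank 11. The 95% interval of the difference was -2.53 to -2.12 for MMP1 and -2.69 to -2.44 for MMP10, and a difference between the 2 falls was not tested. Subtracting the background mode gave a fold of 10.6 for MMP1 and 9.74 for MMP10, the reverse of their order on the deposited scale.

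MMP13, collagenase 3, cuts fibrillar collagens as MMP1 does. It was bright in both groups, at 10.06, 10.39 and 10.19 on the parental arrays and 9.97, 10.10 and 10.06 on the resistant arrays. The groups overlapped. The difference of -0.17 (95% interval -0.34 to -0.0015) did not pass (limma adjusted p = 0.0843). Without parental replicate 1 it was -0.24 and passed (limma adjusted p = 0.0173), and over the alternatives the adjusted p lay between 0.0173 and 0.369. The difference between the changes of MMP1 and MMP13 was not itself tested. MMP3, stromelysin 1, a close relative of MMP10, was below the background limit on all 6 arrays, from 6.79 to 6.97 in parental and 6.83 to 6.91 in resistant cells. It was not tested in the filtered fit, and the fit without the filter gave -0.03 (limma adjusted p = 0.816).

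MMP14 encodes a membrane-anchored MMP that is known to activate pro-MMP2 at the cell surface together with TIMP2. It read 7.20, 7.08 and 6.92 on the parental arrays and 6.92, 6.84 and 6.99 on the resistant arrays. It was above background on 2 parental arrays and 1 resistant array, and the groups overlapped. The difference of -0.15 (95% interval -0.31 to 0.0056) did not pass (limma adjusted p = 0.0982), but it passed without parental replicate 3 (limma adjusted p = 0.0175) and with a moderation trend (limma adjusted p = 0.0471). The alternatives spanned 0.0175 to 0.358.

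The gelatinases MMP2 and MMP9, which cut denatured collagen and basement membrane collagen, were at or near background. MMP2 read 6.94, 7.06 and 6.97 on the parental arrays and 6.93, 6.94 and 6.99 on the resistant arrays, above the limit on 1 array of each group. The fit without the filter gave a difference of -0.03 (limma adjusted p = 0.732). MMP9 read 6.80, 6.82 and 6.70 on the parental arrays and 6.90, 6.97 and 6.90 on the resistant arrays, below the limit on all 6. Its resistant arrays were all higher than its parental arrays. Among the genes tested, which do not include MMP9, the groups did not overlap for 59.0%, counting both directions. The fit without the filter gave a difference of 0.15 for MMP9 with an adjusted p of 0.0425 over genes (limma), and 0.0529 when all probes were fitted. Without the filter 30.3% of all genes were called. No fold is given, because both groups were below the limit.

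TIMP1, which inhibits most secreted MMPs and binds pro-MMP9, read 9.79, 9.78 and 9.74 on the parental arrays and 11.42, 11.35 and 11.47 on the resistant arrays. The groups were separated by far more than the spread within them. The means of 9.77 ± 0.0275 and 11.41 ± 0.0606 (SD, n = 3 each) gave a 3.13-fold rise (log2 difference 1.65, SE 0.0561, limma adjusted p = 7.07e-11). TIMP2 inhibits MMPs and also forms the complex with MMP14 that captures pro-MMP2. Its brighter probe read 8.38, 8.50 and 8.65 on the parental arrays and 10.13, 10.20 and 10.34 on the resistant arrays, again without overlap. The means of 8.51 ± 0.136 and 10.22 ± 0.108 (SD, n = 3 each) gave a 3.28-fold rise (log2 difference 1.71, SE 0.0763, limma adjusted p = 8.01e-10). Among all genes tested these were the rises of rank 50 and 46.

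The dimmer TIMP2 probe was below background on the 3 parental arrays, at 6.97, 6.94 and 6.86, and read 7.59, 7.53 and 7.60 on the resistant arrays. Its rise was at least 1.51-fold, from the mean of the parental background limits to the resistant mean (limma adjusted p over probes = 1.47e-06, measured means 6.92 and 7.57). This probe passed the filter through the resistant arrays alone, where it is high, so its p-value is no independent support. With all probes fitted and no filter its limma adjusted p was 9.11e-07. Both TIMP2 probes were higher in the resistant cells. The mean of the probes, which includes these parental values below the limit, gave a TIMP2 difference of 1.18. TIMP1 and TIMP2 thus rose alongside MMP7, while MMP10 and MMP1 fell.

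**Figure D2:**
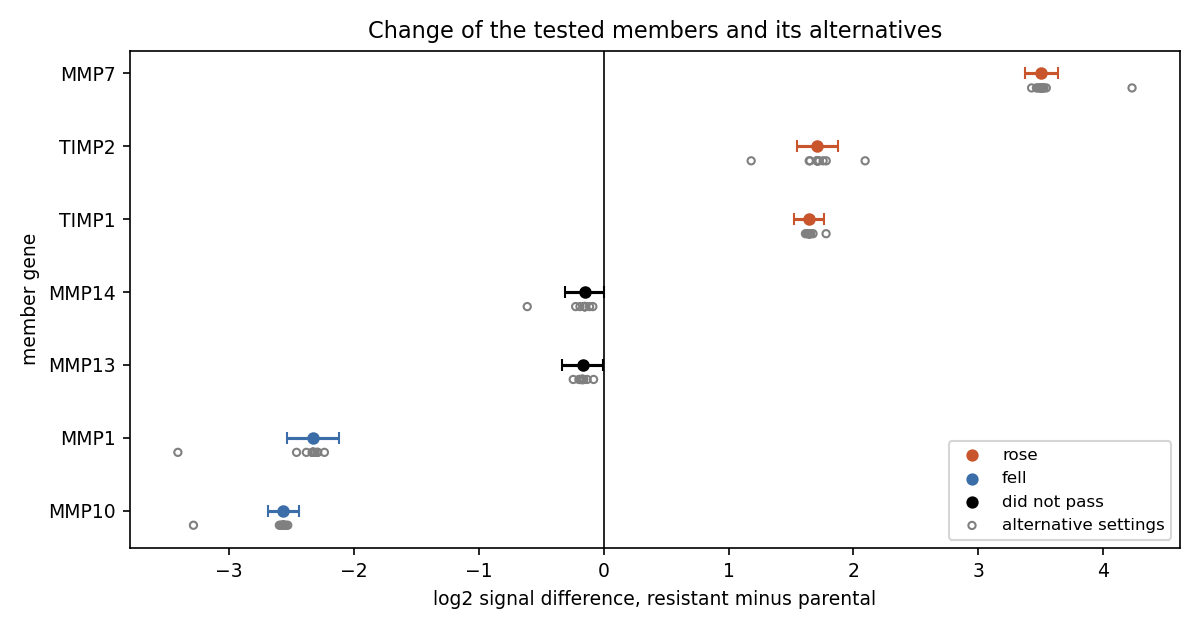
Difference in normalized log2 signal, resistant minus parental (horizontal axis), for the 7 tested members (vertical axis); filled points are the values as reported with 95% intervals, and open grey points are the alternative settings. MMP7, TIMP1 and TIMP2 stay above 0 and MMP10 and MMP1 below 0 under every setting drawn, and the outlying grey points of MMP7, MMP1 and MMP10 are the values with the background mode subtracted.

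The upstream sequences of MMP7, MMP10 and TIMP1 are shown because these members changed, MMP7 and MMP10 in opposite directions, and because AP-1 and ETS factors, known regulators of MMP promoters, changed between the same groups. RefSeq promoter windows (GRCh38.p14) were matched for 4 of the 10 members, MMP7, MMP10, MMP14 and TIMP1. Each line below gives the 250 bases before the annotated start, 5′ to 3′ on the gene's strand, with capitals marking matches to the motifs searched on both strands, which were AP-1 (TGANTCA), ETS (AGGAAG) and TCF (CTTTGA). The stretches are chr11:102530748-102530997 on the minus strand for MMP7, chr11:102780629-102780878 on the minus strand for MMP10 and chrX:47582186-47582435 on the plus strand for TIMP1.
MMP7: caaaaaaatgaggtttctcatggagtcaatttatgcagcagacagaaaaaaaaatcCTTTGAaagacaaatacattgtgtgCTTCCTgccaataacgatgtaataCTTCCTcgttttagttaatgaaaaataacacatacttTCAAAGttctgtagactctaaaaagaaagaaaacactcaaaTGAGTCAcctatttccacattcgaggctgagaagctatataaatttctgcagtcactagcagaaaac
MMP10: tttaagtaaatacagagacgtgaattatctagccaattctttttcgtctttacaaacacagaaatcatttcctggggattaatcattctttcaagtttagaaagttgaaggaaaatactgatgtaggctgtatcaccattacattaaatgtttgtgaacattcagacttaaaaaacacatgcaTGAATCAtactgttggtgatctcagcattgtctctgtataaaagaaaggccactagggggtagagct
TIMP1: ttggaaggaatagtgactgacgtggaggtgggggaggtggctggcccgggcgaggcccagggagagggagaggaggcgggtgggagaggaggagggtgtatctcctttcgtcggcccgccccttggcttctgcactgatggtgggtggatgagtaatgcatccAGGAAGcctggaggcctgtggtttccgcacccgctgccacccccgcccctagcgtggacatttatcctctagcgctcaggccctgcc

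The MMP7 window held an AP-1 match, TGAGTCA, whose first base lay at -67 from the start. It also held 2 ETS matches on the opposite strand, at -169 and -145, and TCF matches at -194 and, on the opposite strand, at -108. The MMP10 window held 1 match, the AP-1 variant TGAATCA, with its first base at the same distance of -67. The TIMP1 window held 1 ETS match at -87, and the MMP14 window held no match to these letters. No matches overlapped. Among all 35116 windows of 300 bases, 7.71% held the AP-1 letters, 33.6% the ETS letters and 12.9% the TCF letters. A match describes letters only, and binding was not measured. Sites that differ from the searched letters were not counted, so a window without a match may still hold such a site. An AP-1 match at -67 was thus present upstream of MMP7, which rose, and of MMP10, which fell.

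More than 1 AP-1 and ETS factor rose in the resistant cells. Of 13 listed factors, 12 were tested, 7 rose, 0 fell and 5 did not pass. Over all genes tested, 26.0% rose and 26.9% fell. The list also holds RUNX2, a factor of another family, which did not pass. The median log2 change of the 12 was 0.44 against -0.01 over all genes tested. The ETS factor ETV5 rose by 1.59 on the log2 scale (limma adjusted p = 2.94e-10), and its other probe by 0.80. The AP-1 subunit FOSL1 rose by 1.22, JUND by 0.72 and JUN by 0.66 (limma adjusted p = 3.88e-09, 6.01e-07 and 2.67e-07). ETS1 rose by 0.69 (limma adjusted p = 6.82e-06). FOS went from background to 7.43, at least 1.37-fold (limma adjusted p = 3.84e-06). With the background mode subtracted from signals floored at the limit the rise was at least 4.06-fold. FOS passed the filter through the resistant arrays alone, where it is high.

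The members MMP7, MMP10, MMP1, MMP3 and MMP13 belong to a cluster of 9 MMP genes on chromosome 11. In the RefSeq order the measured genes run YAP1, BIRC2, TMEM123, MMP7, MMP20, MMP27, MMP8, MMP10, MMP1, MMP3, MMP12, MMP13, DCUN1D5 and DYNC2H1. BIRC3, which lies on the MMP7 side, was not analysed here. In this stretch 9 genes were tested, 4 rose and 4 fell, where 26.0% of all genes tested rose and 26.9% fell. MMP7 and the 3 measured flanking genes on its side rose. BIRC2, an inhibitor of apoptosis, went from 9.61 ± 0.217 to 10.59 ± 0.0450 (SD, n = 3 each), TMEM123 rose by 0.70 and YAP1, a transcriptional co-activator, by 0.38 on the log2 scale (limma adjusted p = 7.38e-07, 6.73e-07 and 8.42e-05). On the other side MMP10 and MMP1 fell, MMP13 did not pass, and the flanking genes DCUN1D5 and DYNC2H1 fell by 0.45 and 0.34 (limma adjusted p = 5.56e-05 and 8.34e-04). The fall of DCUN1D5 rests on 1 of its 3 probes, the others differing by -0.10 and -0.02. MMP20, MMP27, MMP8, MMP12 and MMP3, 5 of the 9 cluster MMPs, were below background on all arrays by every probe. DNA copy number was not measured, and the arrangement of rises and falls along the cluster was not tested.

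**Figure D3:**
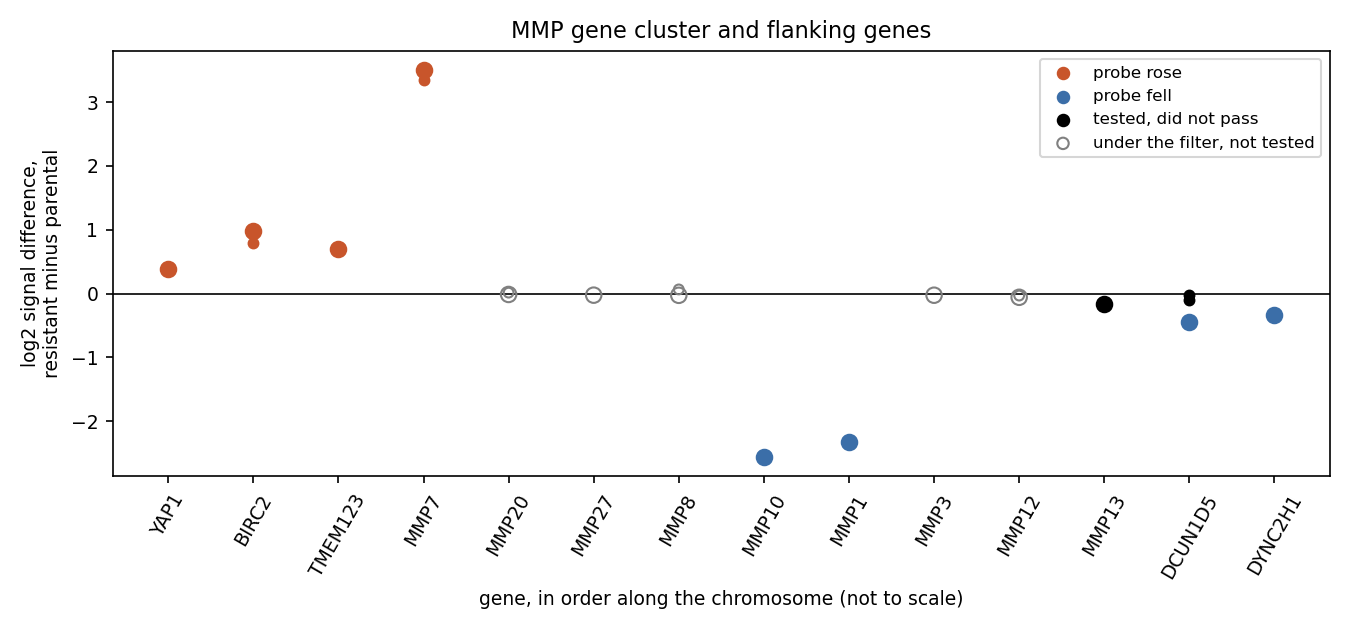
Difference in normalized log2 signal, resistant minus parental (vertical axis), for the MMP cluster on chromosome 11 and its flanking genes in chromosomal order, not to scale (horizontal axis); large points are the probes that represent a gene, small points are further probes and open points did not pass the filter. YAP1, BIRC2, TMEM123 and MMP7 lie above 0, and MMP10, MMP1, DCUN1D5 and DYNC2H1 below 0.

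Most of the other MMPs did not pass the filter on low signal. Of 15 listed, 5 were tested, 1 rose and 1 fell, with a median log2 change of -0.05. Over all genes tested, 52.9% were called. MMP28 (epilysin), an MMP of keratinocytes, went from 8.58 to 8.12 and fell by 0.47 (SE 0.0564, limma adjusted p = 1.27e-05). Its other probes differed by -0.28, which passed, and 0.11, which did not. MMP16, a membrane-type MMP, went from background to 7.19, at least 1.16-fold (limma adjusted p = 0.00135). With the background mode subtracted from signals floored at the limit the rise was at least 2.31-fold. MMP16 passed the filter through the resistant arrays alone, where it is high. Its other probe differed by 0.12 and was not tested. MMP15, MMP21 and MMP23B differed by -0.04, -0.05 and -0.10 and did not pass (limma adjusted p = 0.568, 0.518 and 0.241). Their parental means of 7.09, 7.00 and 7.18 lay near the background limit.

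Among 4 further inhibitors, 3 were tested, and TIMP4 alone of these passed, where 26.0% of all genes tested rose and 26.9% fell. TIMP4 went from a parental mean of 7.67 ± 0.0903 to a resistant mean of 8.92 ± 0.0626 (SD, 3 arrays each), a 2.38-fold rise (limma adjusted p = 2.75e-09), and 4.02-fold with the background mode subtracted. TIMP3 differed by 0.15 (limma adjusted p = 0.0576), and passed in 5 alternatives, among them that without resistant replicate 1 (limma adjusted p = 0.0409, with 0.0299 to 0.241 over all of them). RECK, a membrane-anchored MMP inhibitor, lay near the background limit, with means of 6.97 in parental and 7.01 in resistant cells. It differed by 0.04 (limma adjusted p = 0.530). TIMP4 thus rose with TIMP1 and TIMP2.

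The ADAMs, membrane-anchored relatives that shed cell surface proteins, went both ways. Of 10 listed, 7 were tested, 4 rose and 1 fell (median 0.14), where 26.0% of all genes tested rose and 26.9% fell. ADAM19 rose by 1.33 on the log2 scale, ADAM9 by 0.67 and ADAM12 by 0.66 (limma adjusted p = 2.91e-09, 8.24e-06 and 3.58e-07). The other ADAM12 probes differed by 0.20 and 0.05, and background subtraction moved its fold from 1.58 to 4.54. ADAM15 fell by 0.42 (limma adjusted p = 7.94e-05). ADAM17, the main sheddase of EGFR ligands, differed by -0.07 (limma adjusted p = 0.340). ADAM21 went from background to 7.01, at least 1.03-fold (limma adjusted p = 0.0435). It passed the filter through the resistant arrays alone, where it is high. Its call was lost on leaving out any 1 array (limma adjusted p = 0.0687 to 0.115).

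Of 19 listed ADAMTS proteases, secreted relatives that act on proteoglycans and procollagens, 3 were tested and all were called with small changes (median 0.18). Of all genes tested, 52.9% were called. ADAMTS6 rose by 0.27 (limma adjusted p = 0.00185), and with the background mode subtracted, which put 1 parental array at the floor, the fold was 2.39. ADAMTS1 rose by 0.18 and ADAMTS13 fell by 0.16 (limma adjusted p = 0.0245 and 0.0339). The ADAMTS13 signal lay near the background limit, with means of 7.05 in parental and 6.90 in resistant cells. ADAMTS1 no longer passed on leaving out parental replicate 1 or 2, or resistant replicate 2 or 3 (limma adjusted p up to 0.114), and the ADAMTS13 call without any 1 parental replicate or without resistant replicate 2 or 3 (up to 0.124).

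Among genes that activate pro-MMPs or hold MMPs at the cell surface, 12 of 17 were tested, 5 rose and 3 fell (median 0.04). The shares over all genes tested were 26.0% risen and 26.9% fallen. LCN2, which forms a complex with MMP9, rose by 1.38 on the log2 scale (limma adjusted p = 9.98e-10). PLAUR, the urokinase receptor, rose by 0.99 by its brightest probe (limma adjusted p = 2.33e-08) and by 0.90 and 0.85 by the others. PLAT, tissue plasminogen activator, went from background to 7.44, at least 1.38-fold (limma adjusted p = 2.12e-05). With the background mode subtracted its rise was at least 4.09-fold. PLAT passed the filter through the resistant arrays alone, where it is high. CD44, a docking receptor for MMP9 and MMP7, rose by 0.44, 0.87 and 0.71 across its 3 probes. PCSK5, a proprotein convertase, rose by 0.31 (limma adjusted p = 3.26e-04), and the tight junction gene CLDN1, a claudin able to recruit pro-MMPs, fell by 0.85 (limma adjusted p = 4.69e-08).

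Of 16 listed MMP substrates, 11 were tested, 4 rose and 3 fell (median -0.04), where 26.0% of all genes tested rose and 26.9% fell. E-cadherin (CDH1) fell by 0.95, syndecan-1 (SDC1) by 0.83 and the matrix glycoprotein tenascin C (TNC) by 0.77 on the log2 scale (limma adjusted p = 7.20e-08, 6.33e-07 and 2.66e-06). HBEGF rose by 0.73 and the collagen gene COL1A1 by 0.55 (limma adjusted p = 2.47e-07 and 2.58e-06). The brighter COL1A2 probe was below the background limit on all parental arrays and read 7.14 in resistant cells. Kept by the filter through the resistant arrays alone, it passed the test (limma adjusted p = 0.00159). The other COL1A2 probe was above the limit on all 3 parental arrays and differed by -0.06, and averaging both probes ended the call (limma adjusted p = 0.115). Cell-surface proteins that MMP7 is known to cut thus went in both directions at the RNA level. Cleavage was not measured.

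**Figure D4:**
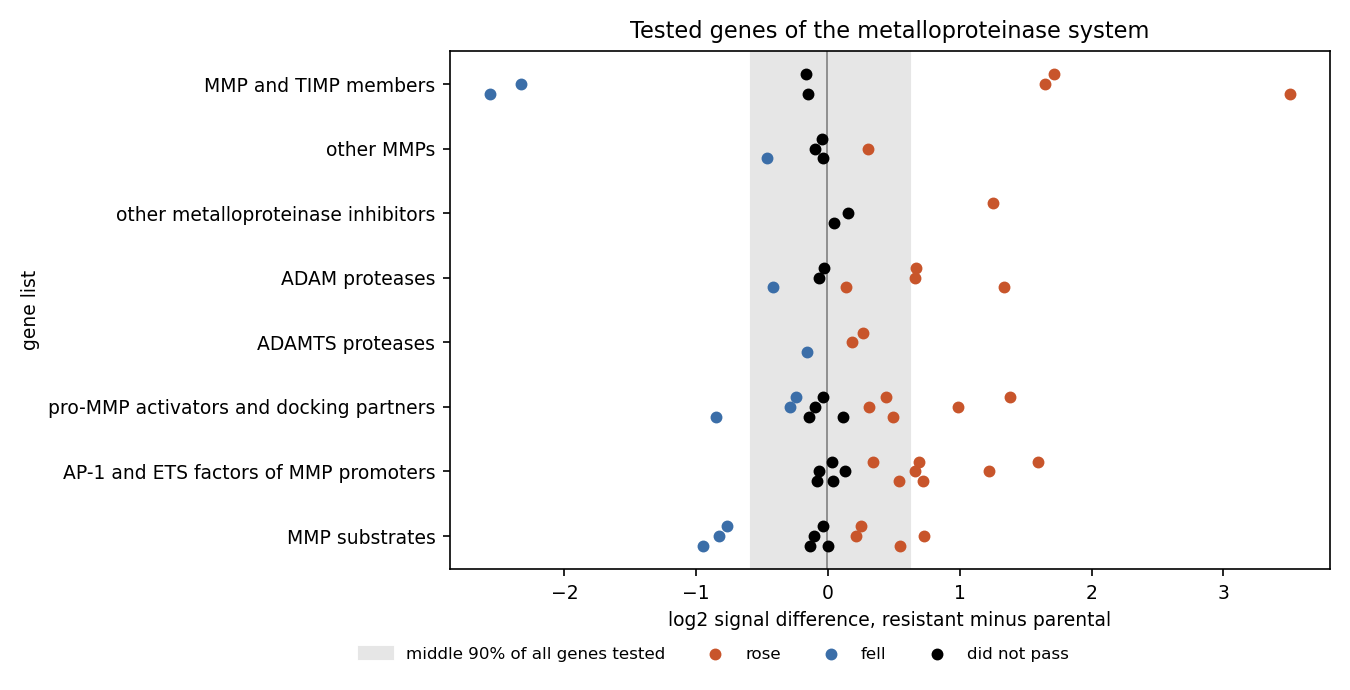
Difference in normalized log2 signal, resistant minus parental (horizontal axis), for the tested genes of each list (rows), with each point 1 gene, orange for genes that rose, blue for genes that fell and black for genes that did not pass; the grey band holds the middle 90% of all genes tested, from -0.59 to 0.62. The 5 called MMP and TIMP members lie outside the band. Above it also lie ETV5, FOSL1, LCN2, ADAM19, TIMP4, PLAUR, HBEGF, JUND, ETS1, ADAM9, JUN and ADAM12. Below it also lie CDH1, CLDN1, SDC1 and TNC.

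Over the 6 arrays, the 3 genes with the profile nearest to MMP7, by the root mean square difference of log2 values after removing each gene's mean, were CXCL8 (0.140), ALPK2 (0.191) and CCL2 (0.256). For MMP10 they were CA2 (0.0502), GTSF1 (0.0706) and CNTNAP2 (0.0815). With 3 arrays in each of 2 groups this measure mostly reflects the size of the group difference. The parental means of ALPK2 and CCL2, 6.82 and 6.81, lay below the background limit, so their changes and their distances from MMP7 depend on the array floor. The changes were 3.31 for CXCL8 and 3.50 for MMP7, and -2.50 for CA2 and -2.56 for MMP10.

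Stromal and blood cells are other known sources of MMP and TIMP RNA, so their markers are given beside these results. Counting any probe of a gene, 2 of 8 fibroblast markers (COL1A1 and COL1A2) were above background on any parental array and 6 on any resistant array, while PDGFRB and THY1 were below it on all 6. The summed linear signal of the 8, by their brightest probes, was 991 to 1010 on parental and 1915 to 1933 on resistant arrays, and DCN went from background to 9.44. Of 8 leukocyte markers, CD68, CD14 and CD79A were above background in both groups and PTPRC, CD3D, CD3E, ITGAM and LYZ on no array, with sums of 1971 to 2121 and 3587 to 3927, where CD68 rose by 1.38. Of 7 endothelial markers, PECAM1 alone was above background, on resistant arrays, and the sums were 777 to 782 and 821 to 827. The summed signal of the 6 squamous markers went from 24318 to 26497 on parental arrays to 15284 to 16267 on resistant arrays. The part of other cell types in the MMP and TIMP changes was not tested, and in bulk RNA fewer cells of a type and less RNA per cell cannot be told apart.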

How the data were processed

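Total RNA of 3 parental and 3 erlotinib-resistant HN5 samples was extracted with Trizol and RNeasy columns and labelled with biotin for Illumina arrays, per the labels' protocols. Groups and replicate numbers come from the sample titles; the labels call the replicates biological and give no culture for each, so the p-values rest on the spread among these 3 and 3 samples, part of which may be technical. The authors deposited normalized log2 signals for 47230 probes, with software, background treatment and normalization method not given in the sources used here. Their base was read from the range of 6.51 to 13.76 on each array, and the sorted values of the arrays differed by at most 0.00434, so a change is measured against the remaining probes of an array. The deposited table of non-normalized signals has 12 columns of per-sample values whose headings match no sample's labels, and it was left out.

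Probes were named from the platform annotation: 30112 had 1 gene symbol, 8 several and 17110 were not listed. For 30073 the Entrez ID was found in RefSeq, which changed 0 symbols. Probes above the background limit on at least 3 of 6 arrays were kept, and each gene was represented by its kept probe with the highest mean. A probe high in 1 group could thus be kept through that group alone, which favours a difference between the groups. In the wider lists 5 tested genes were at background in 1 group by every probe, and their p-values are no independent evidence. Levels of different probes were not compared with each other. Limma 3.58.1 in R 4.3.3 (lmFit, eBayes, no replicate block, 4 residual and 8.90 prior degrees of freedom) compared resistant with parental arrays over 11398 genes, with Benjamini-Hochberg adjusted p under 0.05 as the threshold. All 19662 kept probes were fitted in the same way. Precision is limited by the number of arrays. The text names all members, up to 6 genes with the smallest adjusted p of each wider list, and RUNX2. It also names the listed genes of the chromosome 11 cluster, the 3 nearest profiles of MMP7 and MMP10 and the cell type markers. The members, lists and alternatives were chosen with earlier results of these data known. Alternatives were no filter, a strict filter, the mean of probes, cyclic loess, background mode subtraction (floored at the limit), a moderation trend, array weights, a replicate block and leaving out each array.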

Additional observations from a re-analysis of the deposited data

How the results depend on the processing

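MMP7, TIMP1, TIMP2, MMP10 and MMP1 kept their direction and their calls under all 14 alternatives, with log2 changes of 3.43 to 4.23, 1.62 to 1.78, 1.18 to 2.09, -3.28 to -2.53 and -3.41 to -2.24. The counts of members that rose or fell were 3 and 2, and leaving out 1 array gave 3 risen and 2 to 3 fallen. MMP13 and MMP14 did not pass, and each passed in 2 alternatives; the cause was not tested. The replicate numbers were not taken to pair the samples: the deviations of same-numbered arrays correlated at 0.144, 0.0015 and 0.0856, and resistant replicate 2 correlated best with parental replicate 3 (0.128). With the replicate block 3 members rose and 3 fell, MMP13 being added (limma adjusted p = 0.0324), and 3023 of all genes rose and 3112 fell. Without the filter 4 members rose, MMP9 being added although it lay below the background limit on all arrays. In the wider lists 24 of 53 tested genes rose and 9 fell, where 26.0% of all genes tested rose and 26.9% fell. The alternatives gave 17 to 26 risen and 8 to 10 fallen. The strict filter tested 42 of these genes and gave 17 risen and 8 fallen. It leaves out genes kept through 1 group alone. MMP23B and ADAM17, neither called, turned to 0.0045 and 0.0061 with the mean of their probes (limma adjusted p = 0.949 and 0.928). No DNA, protein or enzyme activity was measured, and signal near the array floor limits what can be said of MMP2, MMP3, MMP9 and MMP14.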
